A study of Mus musculus with 10 samples.

Results

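The genes described here encode the nuclear-coded subunits of the mitochondrial respiratory chain and of ATP synthase, measured in cochlear RNA of 2 mouse strains with and without noise exposure. They were chosen by name: every probe set whose only gene symbol in the platform annotation starts with Nduf, Sdh, Uqcr, Cox4, Cox5, Cox6, Cox7, Cox8 or Atp5. The rule gave 73 of the 8251 genes that the annotation names by 1 symbol, measured by 100 of the 12488 probe sets of the array, and 83 probe sets of 69 genes passed the filter on low mean signal that was applied to the whole table. A further 10 probe sets carry several symbols, 1 or more of them with these prefixes. They are counted here and not named. Of these, 9 were tested and none passed the threshold in any comparison.

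The study measured microdissected tissue of the membranous labyrinth, the soft tissue of the inner ear, on 10 one-colour arrays, each hybridised with RNA pooled from 8 female mice aged 10 weeks. The inbred strain 129X1/SvJ, known for its resistance to noise, was measured on 3 arrays without and 3 with exposure. The other strain, with 2 arrays in each condition, was B6.CAST, known as a C57BL/6J background strain with a CAST segment around Cdh23. The noise groups were killed 6 h after a 1 h exposure to an octave band at 10 kHz and 105 dB SPL, and control mice spent the same time in the chamber without noise. Arrays are named here by strain, group and replicate number, as in 129X1/SvJ noise 1. Every array is a pool, so the spread between arrays is a spread between pools and not between mice.

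The respiratory chain passes electrons from NADH (complex I) and succinate (complex II) through ubiquinone, complex III and cytochrome c to oxygen at complex IV, and the proton gradient built on the way drives ATP synthase, complex V. Most subunits are encoded in the nucleus, and only a few of the membrane cores are encoded by mitochondrial DNA. The nuclear genes are widely expressed, and some subunits of complex IV exist in general, muscle and testis isoforms. In the cochlea the stria vascularis, which pumps potassium into the endolymph, and the hair cells are known as sites of high oxidative metabolism.

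By complex, the members were 38 probe sets of 29 genes for complex I, 4 of 4 genes for complex II, 7 of 7 genes for complex III, 23 of 15 genes for complex IV and 22 of 14 genes for complex V. Another 6 probe sets of 4 genes belong to the assembly factors Ndufaf1, Ndufaf4, Sdhaf1 and Sdhaf2, which help to build complexes I and II and are no part of them, and these are counted apart. The filter kept 30, 4, 7, 17 and 20 probe sets of complexes I to V and 5 of the assembly factors. No probe set passed for Ndufa12 and Ndufc2 of complex I or for Cox5a and Cox8a of complex IV, so these 4 genes have no test. The signals of different probe sets depend on their probes and are not compared with each other. The cochlear identity of the RNA was visible on every array: Coch, which encodes cochlin of the spiral ligament, had a signal between 12604 and 20801.2, Gjb2, the connexin of supporting cells and fibrocytes, between 9074.9 and 24581.1, and Ocm, oncomodulin of outer hair cells, between 1799.7 and 3726.5.

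One array stood apart before any comparison was made. 129X1/SvJ noise 1 correlated with the remaining 9 arrays at 0.910 on average, where each of those had 0.943 to 0.955, and it had the highest level of neutrophil markers (a mean deviation of 2.07 on the log2 scale from the 10-array mean over all 9 markers) and of erythroid markers (1.16 over 6). On the same array 50 of the 83 tested members had their lowest value of all 10 arrays. The same count over all probe sets tested is not given here, so this one cannot be read as particular to the members. For Gapdh, the signal of the 3′ control probe set divided by that of the 5′ one, a sign of RNA integrity, was 29.2 on 129X1/SvJ control 2 and 6.94 on B6.CAST noise 1, against 0.790 to 1.40 on the other 8. Several medians and counts over the members, and some of the named genes, are also given without 1 or more of these arrays. The other named genes are given with all arrays only, and their values may rest on these arrays.

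Sdhd was the member whose data differed between groups past the test, and its promoter region is shown first for that reason. Sdhd encodes the small membrane anchor of succinate dehydrogenase, which with the other anchor, Sdhc, binds ubiquinone. It lies on chromosome 9 at 50596340 to 50603849 on the reverse strand (RefSeq, GRCm38.p6), head to head with Timm8b, at 50603901 to 50605320, and 51 bases separate both starts. Timm8b encodes a small chaperone of protein import between the mitochondrial membranes. The window below runs from 81 bases before the Sdhd start up to it, in the direction of Sdhd, at chr9:50603850-50603930. Capitals mark matches, on either strand, to GCGCNTGCG (N for any base), a core of the site of nuclear respiratory factor 1, and to CCGGAAG, a core of the ETS sites that GABP binds.
Sdhd: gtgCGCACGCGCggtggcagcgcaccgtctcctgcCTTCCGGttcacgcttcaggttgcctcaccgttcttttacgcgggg
The first match lay 78 to 70 bases before the start, which is inside the annotated Timm8b gene, and the second 46 to 40 bases before it, between both genes. The sequence is the reference one, not that of either strain measured, and a match is a stretch of letters, not a shown binding site.

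For comparison, 3 further promoters are printed: that of Sdha, the catalytic flavoprotein of the same enzyme, that of Cox6a1, which also has both motifs, and that of Cox7a1, a muscle-type subunit of complex IV without either. The Sdhd and Sdha windows were cut 30 bases inside the neighbouring gene, which starts 51 bases from Sdhd (Timm8b) and 76 bases from Sdha (Ccdc127). The positions are chr13:74350241-74350346 for Sdha and chr5:115348959-115349208 for Cox6a1, both on the reverse strand, and chr7:30183921-30184170 for Cox7a1 on the forward strand.
Sdha: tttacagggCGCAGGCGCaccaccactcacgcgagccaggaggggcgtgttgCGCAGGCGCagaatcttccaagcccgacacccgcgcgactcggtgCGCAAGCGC
Cox6a1: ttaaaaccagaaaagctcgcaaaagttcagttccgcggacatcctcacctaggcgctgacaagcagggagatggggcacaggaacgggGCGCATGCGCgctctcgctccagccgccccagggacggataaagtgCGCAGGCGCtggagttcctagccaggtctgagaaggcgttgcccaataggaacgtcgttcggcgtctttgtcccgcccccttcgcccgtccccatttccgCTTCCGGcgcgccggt
Cox7a1: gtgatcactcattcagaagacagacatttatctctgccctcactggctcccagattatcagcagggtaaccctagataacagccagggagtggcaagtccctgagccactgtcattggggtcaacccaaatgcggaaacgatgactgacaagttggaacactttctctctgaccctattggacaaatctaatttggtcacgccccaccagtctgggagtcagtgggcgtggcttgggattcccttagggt
The Sdha window holds 3 matches to the first motif, of which the one 97 to 89 bases before the start lies inside Ccdc127, and the Cox6a1 window has 4 matches, 1 of them to the second motif and a pair to the first that overlap each other on opposite strands. Both motifs together occurred in 3 member genes, Atp5l, Cox6a1 and Sdhd. How often both occur over all windows was not counted, so this number has no background to be read against. RefSeq promoters were found for 60 of the 73 genes. In the 250 bases before the start, the first motif occurred in 14 of 65 member windows (21.5%) and in 5.19% of all 32851 windows, and the second in 13 of 65 (20%) and in 6.91% of all. The first motif had been searched with 10 letters, a C following the 9 given here, and was shortened after that result was seen. The longer form occurred in 10 of 65 member windows (15.4%), in 9 genes, and in 3.74% of all windows, so the shortening raised the share of members. Of the genes with both motifs, 2 kept both under the longer form. The 13 genes with the first motif were Atp5c1, Atp5g2, Atp5k, Atp5l, Atp5md, Cox6a1, Ndufa5, Ndufa8, Ndufa12, Ndufaf4, Ndufb10, Sdha and Sdhd. No match to one motif overlapped a match to the other in the windows printed.

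The strain comparison of control mice asks which genes differ between the strains without noise. Sdhd had signals of 1941.7, 1912.7 and 1761.2 on the 129X1/SvJ control arrays and 3620.4 and 3535.3 on the B6.CAST control arrays. Each B6.CAST array lay far above every 129X1/SvJ array, with no overlap. The level in B6.CAST was 1.89-fold that in 129X1/SvJ, a log2 difference of 0.92 ± 0.12 (SE, 2 against 3 arrays; adjusted p = 0.004, limma over all 8695 probe sets tested). Of all probe sets, 80 (0.92%) passed at an adjusted p under 0.05 in this comparison, and Sdhd was 1 of 83 members to do so and stood 26th in order of p. Sdhd did not pass without B6.CAST control 1 (adjusted p = 0.0773) or without both arrays of high Gapdh ratio (0.0555), with a difference of 0.93 in the second case. The strains differ by design, so the sequence under the probes may differ too, and that was not tested.

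In noise-exposed mice the strain difference of Sdhd was again present. The signals were 2135.7, 2253 and 1990.7 in 129X1/SvJ and 3414.4 and 3540.6 in B6.CAST. All B6.CAST arrays were again above all 129X1/SvJ arrays, and this held for the 4 B6.CAST arrays against the 6 129X1/SvJ arrays as well. The log2 difference was 0.69 ± 0.12 (adjusted p = 0.0194, limma), 1.62-fold, and 1.45% of all probe sets passed in this comparison. These noise arrays are not shared with the control comparison, but both comparisons use the same fit and its estimate of spread, so their p-values are not independent. Fitted on only the arrays compared, the adjusted p was 0.102 (limma). The call in noise-exposed mice was less secure than the one in control mice. Over 22 other settings the difference ran from 0.64 to 0.82 and passed in 13. It did not pass without 129X1/SvJ noise 3 (adjusted p = 0.0547), B6.CAST noise 1 (0.15) or B6.CAST noise 2 (0.221), each left out alone, nor without both arrays of high Gapdh ratio (0.262), nor with the replicate number as a block (0.65, adjusted p = 0.107). For control mice it ran from 0.88 to 0.95 and passed in 20 of 22.

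With noise Sdhd did not pass the test in either strain. In 129X1/SvJ its 3 noise arrays were above its 3 control arrays without overlap, by 0.21 ± 0.11 (adjusted p = 0.491, limma), and in B6.CAST the change was -0.02 ± 0.14 (adjusted p = 1). The difference between both noise effects, B6.CAST minus 129X1/SvJ, was -0.23 ± 0.18 (adjusted p = 0.997; 95% interval -0.61 to 0.16).

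Timm8b, named after its values were seen, had signals of 1287.4, 1290.3 and 1308.3 in 129X1/SvJ controls and 1296.6 and 1244 in B6.CAST controls. These overlap, and the log2 difference was -0.03 ± 0.19 (adjusted p = 0.982, limma). In noise-exposed mice the signals were 752.5, 1176.2 and 1169.1 in 129X1/SvJ against 1256 and 1115.6 in B6.CAST, a difference of 0.20 ± 0.19 (adjusted p = 0.801). The lowest Timm8b value was that of 129X1/SvJ noise 1.

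Other genes measured within 100 kb of Sdhd, also named after their values were seen, gave mixed values, and none of them passed. Pts, which encodes an enzyme of tetrahydrobiopterin synthesis, was higher in B6.CAST by 0.50 ± 0.35 in controls (adjusted p = 0.687, limma) and by 1.06 ± 0.35 with noise (adjusted p = 0.237). Dlat, the acetyltransferase of pyruvate dehydrogenase, differed by 0.59 ± 0.28 and 0.52 ± 0.28 on one probe set (adjusted p = 0.473 and 0.594) and by -0.11 ± 0.35 and -0.04 ± 0.35 on the other. For Pts and the first Dlat probe set the strains did not overlap within either condition. Plet1 differed by 0.08 ± 0.18 and 0.21 ± 0.18, and Il18 by -0.19 ± 0.34 and 0.18 ± 0.34.

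**Figure D1:**
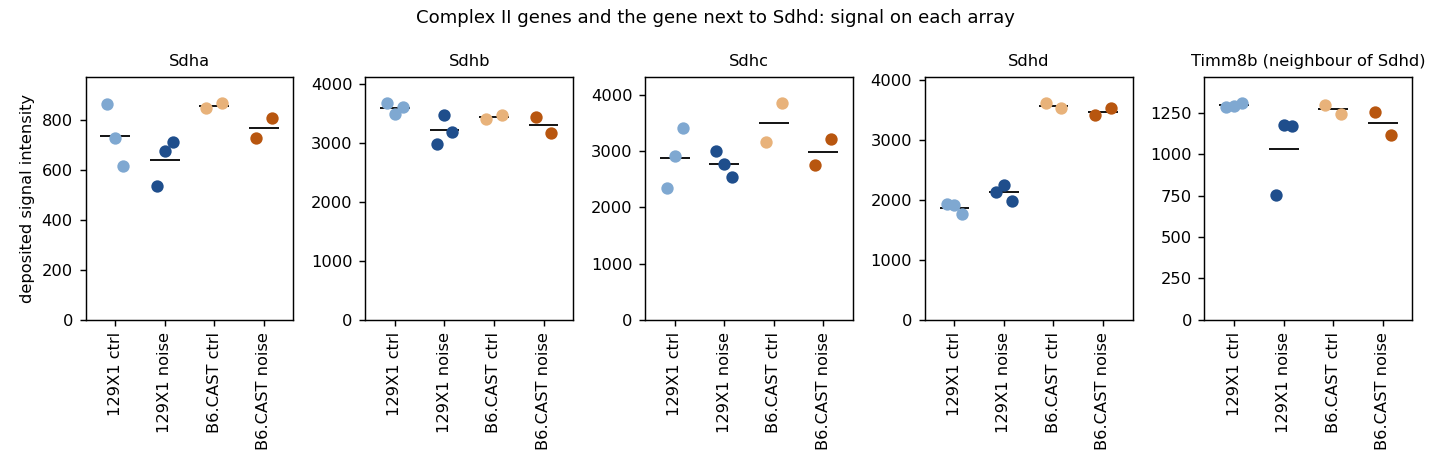
Deposited signal intensity (linear, from 0) of the 4 complex II genes and of Timm8b on each of the 10 arrays, with points for arrays and lines for group means. The Sdhd signals of B6.CAST lie between 3414.4 and 3620.4 and those of 129X1/SvJ between 1761.2 and 2253, while the groups of the other genes lie close together.

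The other complex II genes had smaller strain differences. After normalization Sdha too had all B6.CAST arrays above all 129X1/SvJ arrays within each condition. So did 13.9% of all probe sets in control and 13.2% in noise-exposed mice. Its deposited control signals, given next, overlapped. Sdha had signals of 862.5, 727.7 and 617.2 in 129X1/SvJ controls and 847.9 and 867.2 in B6.CAST controls, a strain difference of 0.25 ± 0.19 (adjusted p = 0.716), and 0.27 ± 0.19 (adjusted p = 0.7) with noise. Sdhc differed by 0.28 ± 0.18 in control mice and by 0.07 ± 0.18 in noise-exposed mice, and Sdhb, the iron-sulfur subunit, by -0.09 ± 0.12 and 0.01 ± 0.12. None of the 3 passed in either comparison. The 95% intervals for control mice were -0.15 to 0.66 for Sdha, -0.34 to 0.17 for Sdhb and -0.11 to 0.66 for Sdhc, against 0.65 to 1.20 for Sdhd.

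Over all 83 tested members, Sdhd and the other complex II genes included, the median strain difference was small. In control mice 56 of the 83 tested members were lower and 27 higher in B6.CAST, with a median log2 difference of -0.056 against -0.046 over all probe sets tested, of which 56.4% were lower. At an unadjusted p under 0.05, 2 members were higher and 2 lower, against 6.41% and 4.7% of all probe sets, and the groups did not overlap in 8 higher and 20 lower members, against 13.9% and 16%. In noise-exposed mice 60 of 83 members were higher in B6.CAST with a median of 0.10, against 52.4% and 0.015 over all probe sets. At an unadjusted p under 0.05, 5 were higher and 1 lower (5.68% and 4.9% of all), and the groups did not overlap in 11 higher and 5 lower members (13.2% and 12.1% of all). In place of these 6 at an unadjusted p under 0.05 there were 2 without B6.CAST noise 1, 4 without B6.CAST noise 2 and again 2 when both high-Gapdh arrays were left out. The median was 0.0032 without 129X1/SvJ noise 1, with 42 of 83 higher. With median centring of the arrays it was 0.21, against 0.085 over all probe sets. Blood cell markers moved with this comparison: all 9 neutrophil markers were lower in B6.CAST at an unadjusted p under 0.05 (median -3.00), and 5 of 6 erythroid markers were lower (median -1.75), 1 of them past the adjusted threshold. Other lists moved too. Markers of the stria vascularis were higher in 4 of 6 (median 0.26), 1 past the adjusted threshold. Lower were 7 of 8 spiral ganglion neuron markers (median -0.36), 3 of 3 Schwann cell markers (-0.40) and 4 of 5 bone markers (-0.56). The part of any of these lists in the values of the members was not tested.

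In 5 member probe sets the 4 B6.CAST arrays lay on one side of all 6 129X1/SvJ arrays. Above were Sdhd, Cox6c and Ndufa3 (3 of 83, 3.61%, against 3.59% of all probe sets tested), and below were Ndufb7 and 1 of the 3 Cox6b2 probe sets (2.41%, against 2.53%). Both shares were near those of the whole array.

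Cox6c, a small nuclear subunit of complex IV, had signals of 6001, 5275.2 and 5434.3 in 129X1/SvJ controls, 5040.4, 6940.2 and 5233.4 in 129X1/SvJ noise arrays, 8639.6 and 7072.1 in B6.CAST controls and 8361.2 and 7298.1 in B6.CAST noise arrays. The lowest B6.CAST value exceeded the highest 129X1/SvJ value. The strain difference was 0.49 ± 0.14 in controls (adjusted p = 0.215) and 0.42 ± 0.14 with noise (adjusted p = 0.276), and it did not pass. The suffix of its probe set (_f_at) marks probes shared within a gene family, so related sequences may add to it.

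Ndufa3, an accessory subunit of the membrane arm of complex I, had signals of 4919.6, 4950 and 5354.5 in 129X1/SvJ controls and 6990.4 and 5721.2 in B6.CAST controls. With noise they were 3193.9, 4053.9 and 4507.1 against 6717.3 and 5606.9. The strain groups did not overlap in either condition. The difference was 0.30 ± 0.15 in controls (adjusted p = 0.513) and 0.63 ± 0.15 with noise (adjusted p = 0.0768), the second smallest p of the members in that comparison. It passed with array weights (adjusted p = 0.0418) and without 129X1/SvJ noise 3 (adjusted p = 0.043, difference 0.75). Its other, dimmer probe set differed by 0.35 and 0.43 in the same direction. Both are of the _f_at kind.

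Ndufb7, another accessory subunit of the membrane arm, was lower in B6.CAST controls at 3992.8 and 4329 against 4925.4, 5020.9 and 6209.9 in 129X1/SvJ. The groups did not overlap, and the difference of -0.38 ± 0.13 did not pass (adjusted p = 0.291). Ndufb9 of the same arm differed by -0.29 ± 0.15 (adjusted p = 0.506), and Uqcr11 of complex III by -0.23 ± 0.19 (adjusted p = 0.767). In noise-exposed mice Ndufa2, an accessory subunit of the NADH-oxidising N module, was higher in B6.CAST by 0.36 ± 0.17 (adjusted p = 0.523), and Ndufa5, of the ubiquinone-reducing Q module, was lower by 0.24 ± 0.12 (adjusted p = 0.567).

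**Figure D2:**
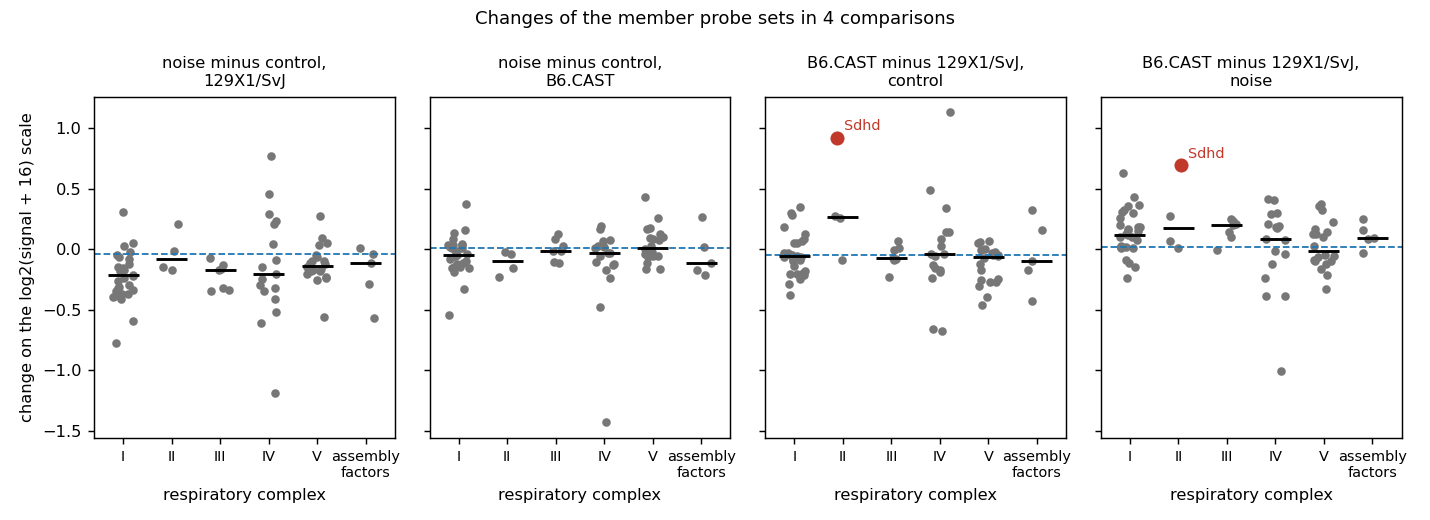
Log2 changes of the 83 tested member probe sets, as points, by complex in 4 comparisons, with the median of each complex as a black line and that of all 8695 probe sets tested as a dashed line. Sdhd, in red, is the one member past an adjusted p of 0.05, in both strain comparisons, and in 129X1/SvJ with noise 27 of 30 complex I probe sets lie below 0.

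The noise comparison within 129X1/SvJ asks which genes had changed 6 h after exposure in the resistant strain. Most members were slightly lower in the noise arrays, and none passed the test on its own. Of the 83 tested members, 68 were lower and 15 higher, with a median log2 change of -0.17, against -0.040 over all probe sets tested, of which 55% were lower. With median centring in place of quantile normalization both medians moved, to -0.30 and -0.11. No member passed an adjusted p under 0.05 in limma, where 44 of 8695 probe sets (0.506%) did. At an unadjusted p under 0.05, 13 members were lower and 1 higher, against 6.21% and 5.32% of all probe sets (11.5% in either direction). In 17 members all 3 noise arrays were below all 3 control arrays and in 1, Sdhd, above, against 9.63% and 6.35% of all probe sets.

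By complex, 27 of 30 complex I probe sets were lower with a median of -0.22, 3 of 4 of complex II (-0.08), 7 of 7 of complex III (-0.17), 11 of 17 of complex IV (-0.20), 16 of 20 of complex V (-0.14) and 4 of 5 of the assembly factors (-0.11). Within complex I the N module, where NADH is oxidised, had a median of -0.34 over 9 probe sets, the Q module -0.12 over 3 and the membrane arm, which pumps protons, -0.18 over 17. The differences between complexes were not tested, since probe sets are not replicates.

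The lower level was unevenly spread over the 3 noise arrays. As mean deviations of the members from their 10-array means on the log2 scale, the 129X1/SvJ control arrays stood at 0.06, 0.07 and 0.10 and the noise arrays at -0.26, 0.01 and -0.04. All 3 noise arrays were below all 3 controls, and noise 1 lay far below the other two. For complex I noise 1 stood at -0.36 and for the N module at -0.50. Without noise 1 the median over the members was -0.084, with 57 of 83 lower and 6 members at an unadjusted p under 0.05 in either direction in place of 14. That number was also 6 without 129X1/SvJ control 2 and 8 without control 3. It was 3 when both high-Gapdh arrays were left out, where the median was -0.18 with 68 of 83 lower. With only noise 1 left out, the medians by complex were -0.11 for complex I (24 of 30 lower), -0.07 for complex II and -0.15 for complex III (6 of 7). They were -0.09 for complex IV (11 of 17), -0.04 for complex V (11 of 20) and 0.06 for the assembly factors.

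Markers of blood cells moved with the same array. The mean deviation of the 9 neutrophil markers was -1.27, 0.32 and 0.95 on the 129X1/SvJ control arrays and 2.07, 0.32 and 0.56 on the noise arrays, and that of the 6 erythroid markers was -0.50, 0.26 and 0.97 on the controls and 1.16, -0.06 and 0.56 on the noise arrays. None of either list was at 0. Among the other lists, all 8 spiral ganglion neuron markers were higher with noise in 129X1/SvJ (median 0.20), and 4 of 6 stria vascularis markers were lower (median -0.12). The part of any of these lists in the lower level of the members was not tested. In tissue RNA of this kind, fewer cells of a type and less RNA per cell cannot be told apart.

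**Figure D3:**
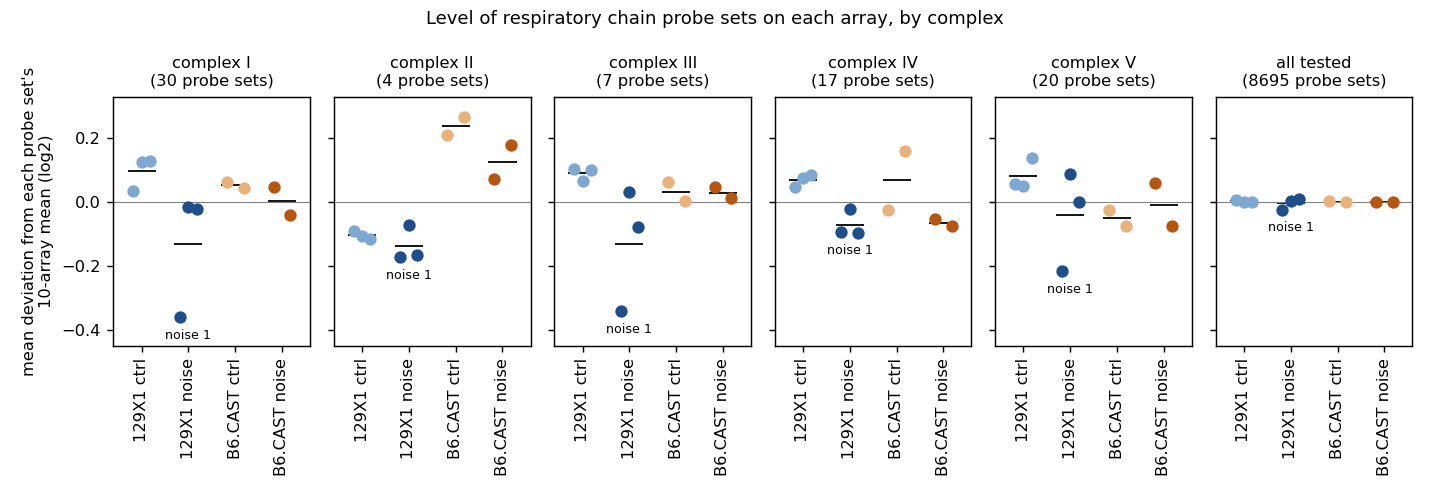
Mean deviation of the tested probe sets of each complex, and of all tested probe sets, from their own 10-array mean (log2) on each array, with lines for group means. 129X1/SvJ noise 1 is the lowest point in complexes I, II, III and V, at -0.36 for complex I. The mean of complex II is higher in B6.CAST, and of its 4 probe sets only Sdhd passed in a strain comparison.

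In complex I the smallest p belonged to Ndufv3, an accessory subunit of the N module. Its signals were 1479.9, 1855.1 and 1531.1 in 129X1/SvJ controls and 781.2, 1148 and 1247.3 in the noise arrays. All noise arrays were lower, the first by most, and the change was -0.60 ± 0.18 (adjusted p = 0.26, limma) and -0.40 without noise 1. Ndufv2, a core iron-sulfur subunit beside it, read 4895.5, 4673.7 and 4803.2 in controls and 2943.8, 4146.8 and 4212.5 with noise, again without overlap, with -0.35 and an adjusted p of 0.401. Its second probe set changed by -0.32.

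In the membrane arm, Ndufb11 had 4830.6, 5233.8 and 4761.9 in controls and 3615.5, 4140.5 and 4188 with noise. The groups did not overlap, and the change was -0.30 ± 0.11 (adjusted p = 0.368). Ndufa3, described above for its strain difference, was lower with noise in 129X1/SvJ by 0.37 ± 0.14 (adjusted p = 0.377) and changed by -0.04 in B6.CAST. Ndufa13, also called GRIM-19, spread widely, with 4066.2, 5014.8 and 3279.3 in controls and 1318.6, 2140.8 and 4539.7 with noise. The groups overlapped. Its mean noise effect over both strains was -0.66 ± 0.29 (adjusted p = 0.619). Ndufa7, of the N module, changed by -0.20 ± 0.09 in the same mean (adjusted p = 0.633).

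In complex III, Uqcrh, known as the hinge protein, had signals of 7124.7, 6446.6 and 6748.6 in controls and 4085.7, 6623 and 6008.1 with noise. The second noise array lay within the control range in these signals and just below it after normalization, and the change was -0.34 ± 0.15 (adjusted p = 0.421), or -0.15 without noise 1. Uqcr10, a small subunit near the iron-sulfur protein, changed by -0.32 ± 0.13 (adjusted p = 0.411) and by -0.16 without noise 1. Uqcr11 changed by -0.34 ± 0.17 (adjusted p = 0.469).

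In complex IV the largest change with noise in 129X1/SvJ was that of Cox7a1, the isoform of subunit VIIa found in heart and skeletal muscle. Its signals were 1303.2, 1364.4 and 987.2 in 129X1/SvJ controls and 304.8, 506.3 and 962 in the noise arrays. No value overlapped, but the highest noise array was 962 and the lowest control 987.2. The change was -1.18 ± 0.34, 0.44-fold, with an adjusted p of 0.239 in limma. It was -0.77 without noise 1 and -1.62 without noise 3, where it passed (adjusted p = 0.027) and was the one member to do so. In B6.CAST the signals were 857.9 and 649.7 in controls and 688.2 and 579.4 with noise, a change of -0.24 ± 0.42. The difference between the noise effects was 0.94 ± 0.54 (adjusted p = 0.997).

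The general isoform Cox7a2 changed by -0.14 ± 0.12 with noise in 129X1/SvJ and by 0.07 ± 0.14 in B6.CAST, and Cox7a2l, which is known for joining complexes III and IV into supercomplexes, by -0.32 ± 0.18 and -0.17 ± 0.22. Cox8b, the muscle-type isoform of subunit VIII, had 2 tested probe sets. The dimmer had 327, 346.7 and 393.1 in controls and 230, 298.3 and 237.9 with noise, a change of -0.52 ± 0.20 (adjusted p = 0.386), and the brighter changed by -0.30 ± 0.16. In noise-exposed mice the brighter one differed between strains by 0.41 ± 0.18 (adjusted p = 0.434). Cox8c, known from testis, changed by 0.23 ± 0.24 in 129X1/SvJ.

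Muscle-type members were read beside a muscle marker list, since small muscles of the middle ear lie next to the cochlea. Cox6a2, the heart and muscle isoform of subunit VIa, had signals between 20.9 and 60.2 on 8 arrays, 116.1 on 129X1/SvJ noise 1 and 206 on B6.CAST control 2. The mean deviation of the 11 tested muscle markers was highest on B6.CAST control 2 (0.63), 129X1/SvJ control 2 (0.37) and 129X1/SvJ noise 1 (0.37). Of the 16 listed, 11 were tested. Their range was -0.18 to 0.37 in 129X1/SvJ controls and -0.27 to 0.37 in its noise arrays, and the part of muscle RNA in the Cox7a1 values was not tested. Of the 7 brown fat markers, 2 were tested. Both were higher with noise in 129X1/SvJ (median 0.52), and in B6.CAST 1 was higher and 1 lower (median 0.021). None passed, and their part in the Cox7a1 values was not tested. Cox6a1, the general isoform, changed by -0.09 ± 0.10 and 0.03 ± 0.13 with noise.

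**Figure D4:**
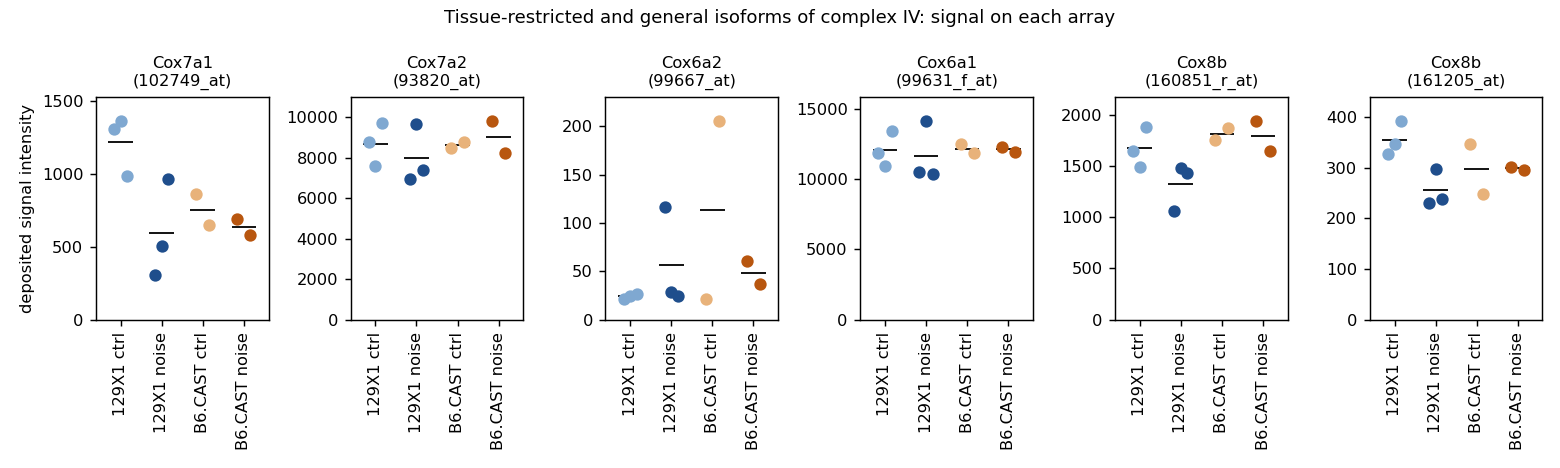
Deposited signal intensity (linear, from 0) of 6 complex IV probe sets on each array, with lines for group means; the height of different panels is not comparable. Cox7a1 is at 987.2 or above in 129X1/SvJ controls and between 304.8 and 962 in its noise arrays, Cox6a2 is high on 2 single arrays and Cox7a2 and Cox6a1 show little difference between groups.

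Other complex IV members gave mixed values. Cox5b, a nuclear subunit on the matrix side, had 5450.3, 5597.2 and 5743.6 in controls and 3806.6, 4842.1 and 4640.9 with noise, all noise arrays lower, by 0.34 ± 0.11 (adjusted p = 0.308). Cox4i1, the general form of the largest nuclear subunit, had 1 probe set that changed by 0.77 ± 0.35 and 1 that changed by -0.20 ± 0.24, so its probe sets disagreed. Cox6b1, the general form of subunit VIb, changed by 0.29 ± 0.28.

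Cox6b2, the testis form of subunit VIb, had the smallest p of the members in B6.CAST with noise. On the probe set concerned the signals were 116.8 and 120.8 in B6.CAST controls and 18.8 and 57.9 with noise, and 152.9, 157.3 and 102.5 in 129X1/SvJ controls and 88.1, 89.9 and 115.5 with noise. The B6.CAST groups were apart and the 129X1/SvJ groups overlapped. The change was -1.43 ± 0.40 in B6.CAST (adjusted p = 1) and -1.02 ± 0.26 as a mean over both strains (adjusted p = 0.215). The other 2 probe sets of the gene changed by -0.13 ± 0.23 and -0.06 ± 0.47 in B6.CAST. These signals are dim, and B6.CAST noise 1, the lower of both noise arrays, has the raised Gapdh ratio. Without it the change was -0.95.

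Complex V held its largest noise change in Atp5d, the delta subunit of the central stalk, on the dimmest of its 4 tested probe sets. The signals were 112.1, 125.6 and 168.4 in 129X1/SvJ controls and 106.4, 83.1 and 112 with noise, a change of -0.56 ± 0.24 (adjusted p = 0.416). The other 3 probe sets changed by -0.18 ± 0.16, -0.15 ± 0.18 and 0.09 ± 0.15. In control mice Atp5d was lower in B6.CAST on all 4, by 0.18 to 0.46, and none passed. Atp5l, subunit g of the membrane part, changed by -0.24 ± 0.13 (adjusted p = 0.497) in 129X1/SvJ with noise. Atp5mpl, a small membrane subunit, changed by -0.20 ± 0.14 with noise in 129X1/SvJ, against 0.17 ± 0.17 for B6.CAST. Its strain difference under noise was 0.37 ± 0.16 (adjusted p = 0.423). Of the ring subunit c genes, Atp5g2 changed by -0.10 ± 0.16 and Atp5g1 by -0.18 ± 0.30 and 0.27 ± 0.28 on its pair of probe sets.

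Where a gene had more than 1 tested probe set, as for 11 genes, all its probe sets had the same sign in 7 genes for noise in 129X1/SvJ and in 6 for the strain difference in control mice.

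In B6.CAST, the more susceptible strain, no member passed the test with noise. Of 83, 49 were lower and 34 higher, with a median of -0.034, against 48.8% lower and a median of 0.0065 over all probe sets tested. Of all 8695 probe sets 4 (0.046%) passed, and at an unadjusted p under 0.05 there was 1 lower and none higher (0.817% and 1.29% of all). The groups did not overlap in 14 lower and 9 higher members, against 13.8% and 15.8% of all probe sets, with 2 arrays against 2. Without both arrays of high Gapdh ratio, which leaves 1 noise array in B6.CAST, assumed to vary like the other groups, 62 of 83 were lower with a median of -0.084. All 9 neutrophil markers were lower with noise in B6.CAST (median -1.92), 7 at an unadjusted p under 0.05, as were 5 of 6 erythroid markers (median -0.91), and none passed. The mean deviation of the neutrophil markers was 1.02 and -0.59 on the B6.CAST control arrays and -1.66 and -1.71 on the noise arrays. The complex medians were -0.045 for complex I, -0.099 for complex II, -0.019 for complex III, -0.035 for complex IV and 0.010 for complex V. Among the members with the smallest p, Ndufa10 of the membrane arm changed by 0.37 ± 0.25 and Uqcrc1, a core subunit of complex III, by 0.13 ± 0.18 (adjusted p = 1 for both).

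The test of the difference between the noise effects found no member and no probe set of the array (0%). At an unadjusted p under 0.05 there were 0 members, against 0.943% of all probe sets higher and 2.02% lower. The difference was above 0 in 64 of 83 members with a median of 0.15, and in 57.4% of all probe sets with a median of 0.063. With median centring these medians were 0.29 and 0.16. Without 129X1/SvJ noise 1 it was above 0 in 54 members, with a median of 0.056. In the same test all 9 neutrophil markers were below 0 at an unadjusted p under 0.05 (median -3.15) and 5 of 6 erythroid markers were below 0 (median -1.36). Their part in the members' difference was not tested. Lower members in 129X1/SvJ beside values near 0 in B6.CAST are therefore not shown to be a difference between the strains. As a mean over both strains, 66 of 83 members were lower (53% of all probe sets) with a median of -0.095. At an unadjusted p under 0.05, 7 were lower and 0 higher, against 3.43% and 4.2% of all, and no member passed, against 0.46%. With both arrays of high Gapdh ratio left out, 1 member in place of 7 had an unadjusted p under 0.05. The members' median was then -0.13, with 68 of 83 lower. Left out alone, 129X1/SvJ control 2, B6.CAST control 1 and B6.CAST noise 1 each gave 3 and B6.CAST noise 2 gave 2.

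**Figure D5:**
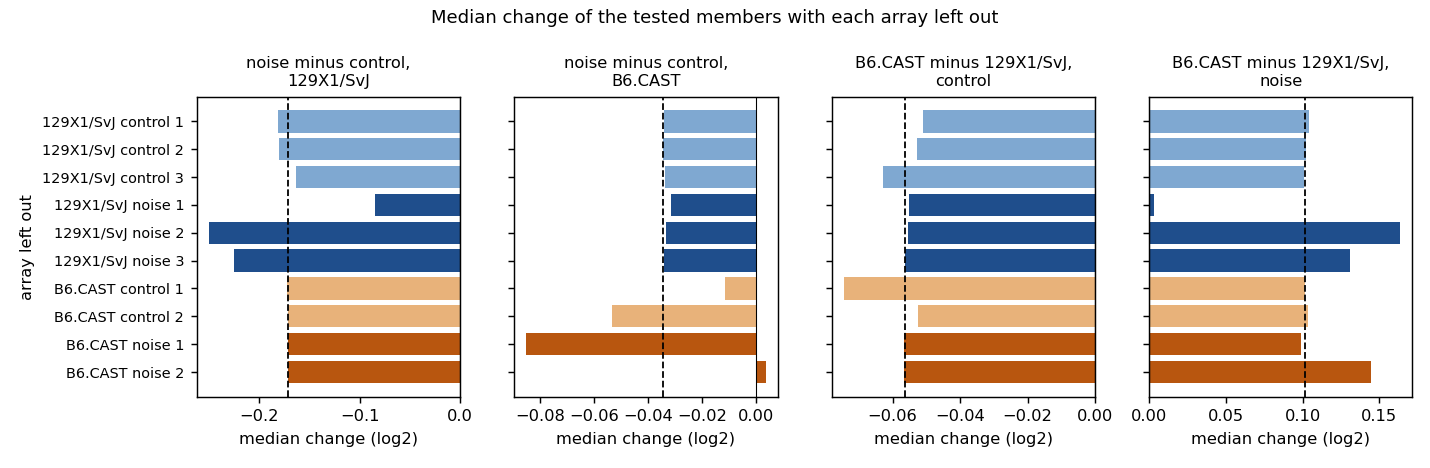
Median log2 change of the 83 tested members when each array in turn is left out (bars from 0, coloured by the group of that array), with the value from all 10 arrays as a dashed line; the 4 panels have different scales. Leaving out 129X1/SvJ noise 1 moves the noise median in 129X1/SvJ from -0.17 to -0.084 and the strain median under noise from 0.10 to 0.0032.

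Genes that work with the respiratory chain were described from 5 lists. Of 35 tested genes (electron carriers, cytochrome oxidase assembly, ATP synthase inhibitor and carriers, citric acid cycle, regulators), 28 were lower with noise in 129X1/SvJ with a median of -0.17, against 55% and -0.040 over all probe sets, and 25 with a median of -0.068 without noise 1 (52.9% and -0.019 over all). Of the 35, 19 were lower in B6.CAST with a median of -0.0056. None of the 35 passed in any of the 6 comparisons. In 129X1/SvJ with noise all 5 electron carrier genes were lower (median -0.32), among them Etfdh, which feeds electrons from fatty acid oxidation to ubiquinone, at -0.61 ± 0.26 (adjusted p = 0.416). So were all 7 carriers and inhibitor genes (median -0.17), 9 of 11 citric acid cycle genes (-0.09), 2 of 3 assembly genes (-0.11) and 5 of 9 regulators (-0.10). The assembly gene with the smallest p was Cox17, the copper chaperone of complex IV, at -0.42 ± 0.18 (adjusted p = 0.416). On 129X1/SvJ noise 1 the electron carriers stood at -0.56 from their 10-array mean.

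Between the strains, Slc25a4, the ADP/ATP carrier of heart and muscle, came closest to the threshold. Its signals were 9247.9, 7470.5 and 8984.7 in 129X1/SvJ controls and 13133.7 and 10305.3 in B6.CAST controls, and 7634.1, 9387.6 and 6921.7 against 11935.4 and 11454.5 with noise. All B6.CAST arrays were above all 129X1/SvJ arrays. The difference was 0.40 ± 0.13 in controls (adjusted p = 0.264) and 0.56 ± 0.13 with noise (adjusted p = 0.0626). Cox18, which inserts a mitochondrially encoded subunit into the membrane, was lower in B6.CAST by 0.64 ± 0.20 and 0.70 ± 0.20 (adjusted p = 0.254 and 0.157). Nnt, the transhydrogenase that uses the proton gradient to make NADPH and is known to be mutated in C57BL/6J, differed by -0.81 ± 0.24 in control mice (adjusted p = 0.215).

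The precision limits what absence of a call can show. The 95% interval of the change lay within 0.5 of 0 on the log2 scale for 31 of the 83 members for noise in 129X1/SvJ and for 35 in B6.CAST, and within 1 for 72 in each. For the difference of noise effects these numbers were 9 and 57. Changes of the size of the medians above are below what single members could show with this number of arrays.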

How the data were processed

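Per the labels, cochlear RNA was amplified and labelled with biotin for one-colour arrays. The deposited table gives 1 linear signal intensity for each probe set and array, already scaled by the authors to a common level, as the values show (trimmed mean from 499.904 to 499.916, lowest and highest 2% dropped). The software is not given in the sources used here. The table was turned into log2(intensity + 16) and quantile normalized, and the fit used the 8695 probe sets left after dropping controls and the dimmest 30% (mean signal above 42.9 kept). Fold changes on this scale understate changes of dim genes.

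Group means were fitted to all 10 arrays in limma 3.58.1 (R 4.3.3) with a variance trend, p-values were adjusted by Benjamini-Hochberg over all 8695 at a threshold of 0.05, and errors are standard errors of that fit. There were 6 comparisons: noise in each strain, their mean and difference, and strain without and with noise. Precision is limited by the number of arrays. All 100 member symbols matched RefSeq (GRCm38.p6) by gene identifier. Replicate 3 of both 129X1/SvJ groups carries another spelling of the strain in the labels and was kept in that strain.

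The members, the lists and the rule for named genes were chosen with earlier results of these data known. Named are members past the threshold, the 3 with the smallest p per complex and comparison, and isoform families. Ndufb2, Uqcrc2 and Atp5e also met this rule by p and are given only here. The difference of noise effects was 0.34 ± 0.19 for Ndufb2 (adjusted p = 0.997, limma) and 0.17 ± 0.21 on its other probe set. The strain difference with noise was 0.21 ± 0.17 for Uqcrc2 (adjusted p = 0.76) and 0.32 ± 0.19 for Atp5e (adjusted p = 0.656). The rule's last part, the brightest and dimmest members, was not used, because signals of different probe sets are not comparable. The fit was tested on simulated data of 8695 probe sets: for the noise effect of 129X1/SvJ it recovered 53 of 100 log2 changes of 1 and 88 of 100 of 2. Of 100 changes of 1 it recovered 41 for noise in B6.CAST, 67 for the mean noise effect and 14 for the difference. For strain it recovered 43 in control and 35 in noise-exposed mice. Alternatives covered scaling, pseudocount, filter, variance trend, array weights, the samples fitted, left-out arrays and a replicate block. Promoter motifs were searched with a script on both strands, and the first was shortened by 1 base after its first result had been seen.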

Additional observations from a re-analysis of the deposited data

Results flagged for a closer look

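Atp5d on its dimmest tested probe set changed in opposite directions with noise in the 2 strains: every 129X1/SvJ noise array lay below every control array (-0.56 ± 0.24) and every B6.CAST noise array above every control array (0.25 ± 0.29). In the deposited 129X1/SvJ signals, given above, the highest noise value was almost equal to the lowest control value. The B6.CAST signals were 102.9 and 87.5 in controls and 114.1 and 117.8 with noise. The difference of the noise effects, B6.CAST minus 129X1/SvJ, was 0.82 ± 0.38 and did not pass (adjusted p = 0.997, limma). Such an opposite pattern was found in 1 of 83 members (1.2%) and in 85 of 8695 probe sets (0.978%). The other 3 probe sets of Atp5d gave differences of 0.26 ± 0.25, 0.09 ± 0.28 and -0.16 ± 0.24.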

How the results depend on the processing

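No member value changed sign between a call and another setting. With arrays left out in turn, the median over the members ran from -0.25 to -0.084 for noise in 129X1/SvJ, from 0.056 to 0.22 for the difference of noise effects and from 0.0032 to 0.16 for strain in noise-exposed mice, each time nearest 0 without 129X1/SvJ noise 1. The number of members called ran from 0 to 1 for noise in 129X1/SvJ (1, Cox7a1, without noise 3), from 0 to 1 for strain in control mice (0 without B6.CAST control 1) and from 0 to 1 for strain in noise-exposed mice (0 without B6.CAST noise 1 or noise 2). With median centring in place of quantile normalization the medians were -0.30 for noise in 129X1/SvJ, 0.29 for the difference and 0.21 for strain in noise-exposed mice, and the last comparison called 0 members. Without 129X1/SvJ noise 1 and both arrays of high Gapdh ratio, a setting chosen after seeing the data, these medians were -0.070, 0.044 and -0.013, with 0 called for strain in noise-exposed mice. Without the 2 arrays of high Gapdh ratio alone, 0 members were called for strain in control mice (Sdhd adjusted p = 0.0555) and 0 in noise-exposed mice (0.262). For strain in noise-exposed mice 0 were called with no variance trend and with only the arrays compared, and 2, Sdhd and Ndufa3, with array weights and at a threshold of 0.10. The cause was not tested. Sdhd kept its direction in all 22 settings of each strain comparison. Its adjusted p was 0.0773 without B6.CAST control 1 for control mice. For noise-exposed mice it was 0.0532 with median centring, 0.0767 with no trend, 0.0547 without 129X1/SvJ noise 3, 0.15 and 0.221 without B6.CAST noise 1 and 2, 0.102 with only the arrays compared and 0.202 without 3 arrays.

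Same-numbered arrays had correlations of their deviations of -0.15, -0.18 and -0.39 for noise in 129X1/SvJ and -0.17 in B6.CAST. Between the strains these were 0.12 and 0.069 in control mice and -0.18 and 0.14 in noise-exposed mice, with 2 shared numbers each. In a group of 2 arrays the deviations mirror each other, so these few values cannot decide whether arrays were paired. The labels do not tie numbers across groups, and the arrays were treated as sharing only a number. With the number as a replicate block, 0 members were called for strain in noise-exposed mice (Sdhd 0.65, adjusted p = 0.107) and no other member call changed. With the B6.CAST numbers crossed, the noise comparison in B6.CAST called 0 members. Member calls in the other comparisons were not counted in that setting.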
